A study of Homo sapiens with 11 samples.

Results

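The Toll-like receptors were followed in RT4 cells, a line from a human bladder papilloma, as the cells moved from plastic to a gel matrix. The family holds 10 human genes, TLR1 to TLR10, and members were all array probes whose single gene symbol is one of these names. The array carried 8 such probes among its 22464 probes, of which 17043 have a single symbol. Each of TLR1, TLR2, TLR3, TLR5, TLR6, TLR7, TLR9 and TLR10 had 1 probe, and no probe had TLR4 or TLR8 as its single symbol. The plastic group had 2 arrays (replicates 1 and 2). The crECM (cancer-remodeled extracellular matrix) group, cells laid after growth on plastic onto solidified Matrigel, a basement membrane gel from a mouse sarcoma, had 9 single arrays, taken at 12 h (day 0.5) and on days 1, 2, 3, 4, 6, 7, 8 and 9. All cells came from 1 untreated line, the gel cultures were fed with McCoy's medium and fetal calf serum, and only the substrate and the time on it differ in the labels. The title of plastic replicate 2 adds "Matrigel next", without saying whether the crECM cells came from that culture. Nothing in the labels says whether the arrays came from separate cultures, so p-values measure only the spread between arrays, which may be technical. The 9 crECM arrays are also different times, so their spread includes time.

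Toll-like receptors are membrane proteins that recognize conserved microbial molecules and some molecules released by damaged tissue. TLR1, TLR2, TLR6 and TLR10 are related receptors of the cell surface, where TLR2 pairs with TLR1 or TLR6 to bind bacterial lipopeptides, and the ligand of TLR10 is less clear. TLR5 binds bacterial flagellin. TLR3, TLR7 and TLR9 sit in endosomes and bind double-stranded RNA, single-stranded RNA and unmethylated CpG DNA. Ligand-bound receptors recruit adaptors, MYD88 for most members and TICAM1 (TRIF) for TLR3, and pass the signal through IRAK kinases and TRAF6 to NF-κB. The cells that line the bladder meet bacteria of the urinary tract, and Toll-like receptors are among their first sensors of infection.

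The promoters of TLR2 and TLR3 are shown because these members moved in opposite directions and each held a different motif. A window of 300 bases was read for each gene, 250 before and 50 after its start (RefSeq, GRCh38.p14), and 5 of the 8 members (TLR2, TLR3, TLR5, TLR6 and TLR9) were matched. The TLR2 window is chr4:153684030-153684329, plus strand, and the TLR3 window is chr4:186068906-186069205, plus strand. Capitals mark a match to GGNNTTTCC, part of an NF-κB site, in TLR2, and to the interferon-response core (GAAA, 2 bases of any kind, then GAAA), read on the opposite strand, in TLR3.
TLR2: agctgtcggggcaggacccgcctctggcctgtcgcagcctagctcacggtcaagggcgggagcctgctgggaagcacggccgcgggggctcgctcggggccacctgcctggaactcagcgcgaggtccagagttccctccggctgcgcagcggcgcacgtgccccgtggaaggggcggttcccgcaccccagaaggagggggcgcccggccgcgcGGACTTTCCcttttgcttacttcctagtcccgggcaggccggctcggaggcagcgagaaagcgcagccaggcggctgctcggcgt
TLR3: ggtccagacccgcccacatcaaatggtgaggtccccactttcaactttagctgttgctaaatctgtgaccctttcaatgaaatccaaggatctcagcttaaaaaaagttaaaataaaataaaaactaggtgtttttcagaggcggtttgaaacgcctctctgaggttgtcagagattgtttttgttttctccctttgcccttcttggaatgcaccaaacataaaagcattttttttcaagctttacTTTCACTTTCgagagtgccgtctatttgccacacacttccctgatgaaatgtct
Both strands of each window were searched for these patterns and for the AP-1 pattern TGANTCA, and no pattern is contained in another. Of 35116 promoters of this length, 6.26% held the first pattern, 3.57% the second and 7.71% the third. The TLR9 window held 1 AP-1 match, and those of TLR5 and TLR6 held no match to any of the 3 patterns. A match describes the letters of the window and is not evidence of binding. The patterns and this pair were chosen after the expression values were seen, so no link between motif and direction can be read from them.

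Expression was measured as the intensity of Cy3-labeled cDNA on spotted long oligos and is given here in SDs of the array's own noise peak above its zero point, as deposited. A probe above 3 SD counts as expressed, the criterion of the study. The raw arrays differed between substrates. Median raw intensity was 140.45 and 162 on plastic and 224.16 to 481.52 on crECM. The SD of the noise peak was 39.5 and 45.7 raw units on plastic and 23.7 to 37.3 on crECM. The share of probes above 3 SD was 44.5% and 53.4% on plastic and 76.6% to 85.4% on crECM when noise was measured on the raw values, but 83.9% to 86.6% on all 11 arrays in the deposited values, after the authors' adjustment between arrays. The slope of deposited on raw log values also differed, at 0.70 and 0.72 on plastic and 1.03 to 1.46 on crECM. The deposited scale was thus narrower on plastic relative to the raw one, and the part of this in the changes below was not tested. Substrate and array handling cannot be told apart here, so raw intensities stand beside the deposited values of each member. Of the 19 urothelial and epithelial markers on the array, 17 were above 3 SD on both plastic arrays and 15 on all crECM arrays. Since most probes of the array pass 3 SD in the deposited values, this limit does not tell the cell type.

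In the deposited values, 4 of the 8 receptors, TLR2, TLR3, TLR5 and TLR10, were above 3 SD on all 11 arrays. The number above 3 SD was 7 and 5 on the plastic arrays and 5 to 8 on the crECM arrays. Against noise measured on the raw values it was 3 on each plastic array, the same 3 genes TLR3, TLR5 and TLR10, and 5 to 7 on the crECM arrays. Between plastic and crECM, TLR1 and TLR2 were higher on crECM, TLR3 and TLR5 were lower, and the other 4 did not pass an adjusted p of 0.05 (limma, Benjamini-Hochberg over 21480 probes). Over all probes tested 22.8% were called higher and 22.4% lower, 45.2% in all, so 4 of 8 is near the background. The median log2 change was -0.53 over the 8 receptors and 0.0571 over all probes. In 5 of the 8 the groups did not overlap, 2 with crECM higher and 3 with crECM lower, beside 20.8% and 24.4% of all probes.

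**Figure D1:**
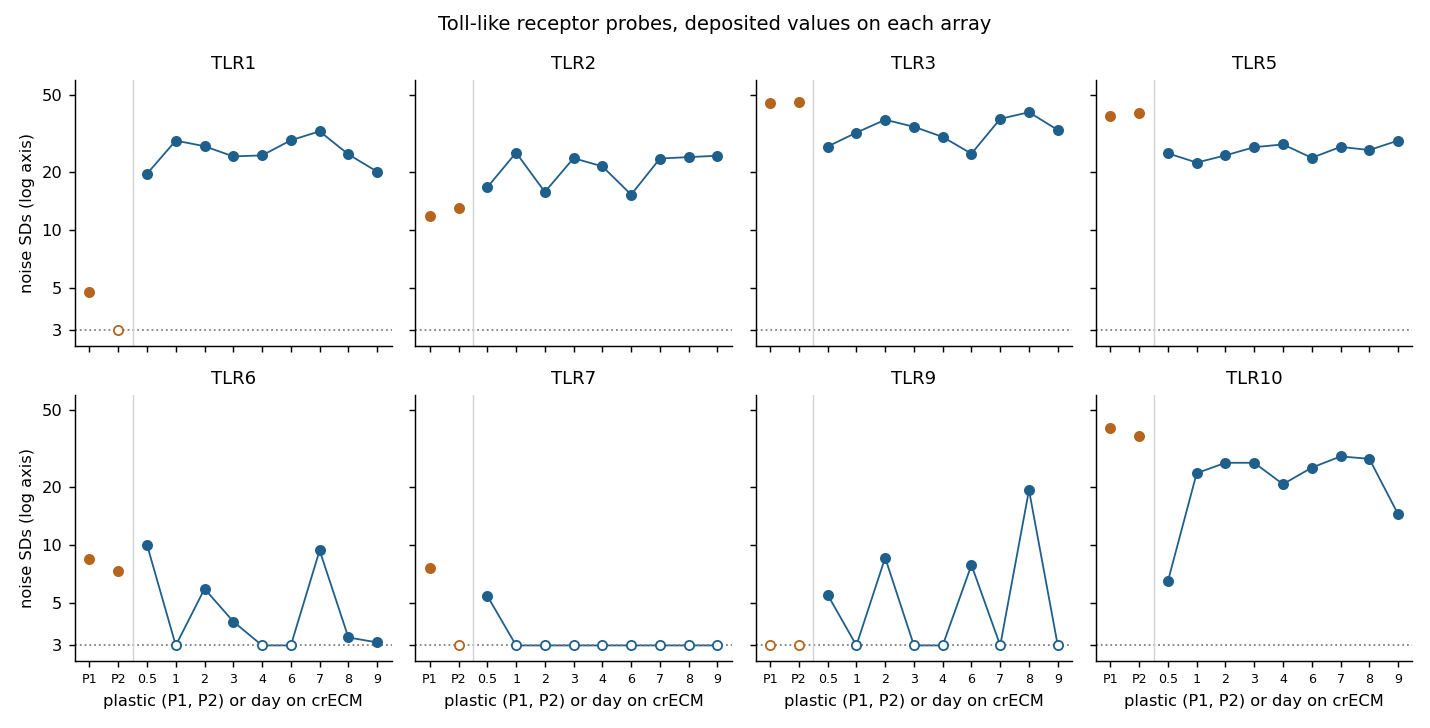
Deposited value of each Toll-like receptor probe (SDs above the zero point, log axis) on the 2 plastic and 9 crECM arrays in order of time, with a dotted line at 3 SD and open points for values at or under 3 SD, drawn at that line. TLR1 lies at 4.75 SD and under the limit on plastic and at 19.5 to 32.4 SD on crECM, while TLR3 and TLR5 lie lower on every crECM array than on both plastic arrays.

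TLR1, which shares its lipopeptide ligands with TLR2, showed the largest change of the family. Its value was 4.75 SD on plastic replicate 1 and 0.00412 SD, the lowest value of that array, on plastic replicate 2. On crECM it was 19.5 SD at 12 h, 29.0 on day 1, 27.1 on day 2, 24.0 on day 3, 24.3 on day 4, 29.1 on day 6, 32.4 on day 7, 24.6 on day 8 and 20.0 on day 9. All 9 crECM arrays lay above both plastic arrays from the first 12 h on. The log2 change was 2.74 (SE 0.23, 95% interval 2.25 to 3.24, limma adjusted p = 1.9e-06). Because a plastic array is at the floor of 3 SD used in the test, TLR1 was at least 6.69-fold higher on crECM in the deposited values, and only 0.41% of all probes changed more on the log2 scale in either direction. The exact permutation test over the 55 choices of 2 of 11 arrays gave p = 0.018 (two-sided), the smallest it can give. TLR1 was also the 1 member of the off-on class of the study (mean log10 value under 0 on plastic and over 1 on crECM), which took 3.97% of all probes, with means of -0.85 and 1.4. The class rests on plastic replicate 2, since replicate 1 was above 3 SD in the deposited values.

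The raw intensities of TLR1 were 22.1 and -3.9 on plastic, both under the zero point of their arrays. On crECM they were 196 at 12 h and 305 to 523 later. Measured on the raw values, TLR1 was above 3 SD on 0 of 2 plastic and 9 of 9 crECM arrays. Its change was smaller on other scales but stayed called, at 3.71-fold in values rebuilt from the raw intensities with the adjustment between arrays, 3.92-fold without it, 3.56-fold with quantile normalization and 5.05-fold with a floor of 5 SD. The median log2 change of all probes was 0.54 in the first of these and 1.27 in the second, and relative to it TLR1 stood at 1.35 and 0.70.

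TLR2, the partner of TLR1 and TLR6, was expressed on all arrays and rose less. Its value was 11.8 and 12.9 SD on plastic. The crECM arrays read 16.6 SD at 12 h, 25.1 on day 1, 15.7 on day 2, 23.5 on day 3, 21.3 on day 4, 15.2 on day 6, 23.4 on day 7, 23.8 on day 8 and 24.2 on day 9. Every crECM array exceeded both plastic arrays, the closest, day 6, by a small margin. The geometric means were 12.4 and 20.6 SD, a 1.66-fold increase (log2 change 0.73, SE 0.22, 95% interval 0.25 to 1.22, limma adjusted p = 0.019, exact permutation p = 0.018). The call was lost with quantile normalization of the raw intensities (0.26, adjusted p = 0.35), with array weights (0.74, adjusted p = 0.072) and without plastic replicate 1 (0.67, adjusted p = 0.14) or 2 (0.80, adjusted p = 0.096). Raw intensities were 71.5 and 69.4 on plastic, less than 3 noise SDs above zero, and 173 to 481 on crECM. Values rebuilt from them with the adjustment gave a 3.09-fold increase, a log2 change of 1.09 relative to the median of all probes.

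TLR6, the other partner of TLR2, was near the limit of expression. Its value was 8.45 and 7.26 SD on plastic. On crECM it was 9.98 SD at 12 h, 2.46 on day 1, 5.90 on day 2, 3.99 on day 3, 2.5 on day 4, 2.60 on day 6, 9.34 on day 7, 3.30 on day 8 and 3.11 on day 9. The 12 h and day 7 arrays were above both plastic arrays and the other 7 were below both. The log2 change was -0.83 (SE 0.48, 95% interval -1.89 to 0.22) and did not pass (limma adjusted p = 0.18, exact permutation p = 0.16). Without those 2 arrays, a choice made after seeing the data, it was -1.16 (adjusted p = 0.0037). The same 2 arrays had the lowest slopes of deposited on raw log values among the crECM arrays, 1.18 and 1.03 against 1.26 to 1.46, and the part of this in the result was not tested. With quantile normalization TLR6 was called lower (-0.74, adjusted p = 0.032). Raw intensities of TLR6 were 45.6 and 30.8 on plastic, 0.45 and 0.0313 noise SDs above zero, and 99.1 to 181 on crECM, and values rebuilt from them gave a log2 change of 0.10 (adjusted p = 0.62), which is -0.44 relative to the median of all probes (0.54).

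TLR10, the remaining relative of TLR1 and TLR6, was strongly expressed on plastic. Its value was 40.1 and 36.8 SD there. The crECM arrays read 6.47 SD at 12 h, 23.5 on day 1, 26.6 on day 2, 26.6 on day 3, 20.6 on day 4, 25.1 on day 6, 28.7 on day 7, 27.9 on day 8 and 14.4 on day 9. All 9 crECM arrays lay below both plastic arrays, but the 12 h array stood apart and the change of -0.91 (SE 0.47, 95% interval -1.93 to 0.12) did not pass (limma adjusted p = 0.14, exact permutation p = 0.16). Without the 12 h array, singled out after seeing the data, the change was -0.70 (adjusted p = 0.026). With all arrays it did not pass with quantile normalization (-0.73, adjusted p = 0.16) or in rebuilt values (-0.68, adjusted p = 0.17). Without the adjustment between arrays it was 0.42 (adjusted p = 0.35), which is -0.85 relative to the median of all probes. Raw intensities were 390 and 313 on plastic, 92.5 at 12 h and 244 to 526 from day 1 on. TLR1, TLR6 and TLR10 are similar in sequence, and binding of their transcripts to each other's probes was not tested.

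TLR5, the flagellin receptor, fell with the least spread. Its value was 38.7 and 40.4 SD on plastic. On crECM it was 24.9 SD at 12 h, 22.3 on day 1, 24.3 on day 2, 26.8 on day 3, 27.7 on day 4, 23.6 on day 6, 26.9 on day 7, 25.9 on day 8 and 29.0 on day 9. The highest crECM array was well below the lower plastic array. The geometric means were 39.5 and 25.6 SD, 1.54-fold lower on crECM (log2 change -0.63, SE 0.10, 95% interval -0.85 to -0.40, limma adjusted p = 0.00048, exact permutation p = 0.018). Raw intensities were 370 and 358 on plastic and 240 to 530 on crECM, where 7 of 9 arrays exceeded both plastic arrays. The fall is therefore relative to the other probes. Without the step that adjusts arrays to each other, the change was 0.60 (adjusted p = 0.032) where the median of all probes was 1.27, so relative to that median TLR5 stood at -0.68, as it did in the deposited values (-0.68).

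TLR3, the endosomal receptor of double-stranded RNA and the TICAM1 pathway, was well above noise on every array and lower on crECM. Its value was 45.7 and 45.9 SD on plastic. The crECM arrays read 27.0 SD at 12 h, 31.9 on day 1, 37.2 on day 2, 34.2 on day 3, 30.3 on day 4, 24.8 on day 6, 37.6 on day 7, 40.7 on day 8 and 32.9 on day 9. All crECM arrays were below both plastic arrays. The geometric means were 45.8 and 32.6 SD, 1.41-fold lower on crECM (log2 change -0.49, SE 0.16, 95% interval -0.84 to -0.14, limma adjusted p = 0.027, exact permutation p = 0.036). The call was lost with quantile normalization (-0.34, adjusted p = 0.11), with array weights (-0.44, adjusted p = 0.11) and without plastic replicate 1 (-0.49, adjusted p = 0.14) or 2 (-0.49, adjusted p = 0.16). Raw intensities were 470 and 430 on plastic and 258 to 645 on crECM. Without the adjustment between arrays the change was 0.57 (adjusted p = 0.044), which is -0.70 relative to the median of all probes.

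TLR7 and TLR9, the endosomal receptors of single-stranded RNA and CpG DNA, were mostly not expressed. TLR7 was 7.57 SD on plastic replicate 1 and 0.00412 SD, the lowest value of the array, on replicate 2. On crECM it was 5.42 SD at 12 h, 2.64 on day 7 and 0.28 to 1.34 on the other 7 arrays. The plastic arrays thus differed from each other by more than the groups did, and the log2 change of -0.57 (SE 0.29) did not pass (limma adjusted p = 0.13). In raw units TLR7 ranged from -0.2 to 84.5 over all arrays and was above 3 noise SDs on none.

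TLR9 was at the lowest value of the array on both plastic arrays. The crECM arrays read 5.50 SD at 12 h, 8.55 on day 2, 7.84 on day 6 and 19.2 on day 8, and under 3 SD on the other 5 arrays, 3 of them at their array's lowest value. Raw intensities were -53.2 and -65.5 on plastic, 85.1, 229, 199 and 326 on these 4 crECM arrays and -69.1 to 104 on the others. Days next to each other thus differed as much as the groups, and the log2 change of 0.72 (SE 0.64, 95% interval -0.70 to 2.13) did not pass (limma adjusted p = 0.39, exact permutation p = 0.60).

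**Figure D2:**
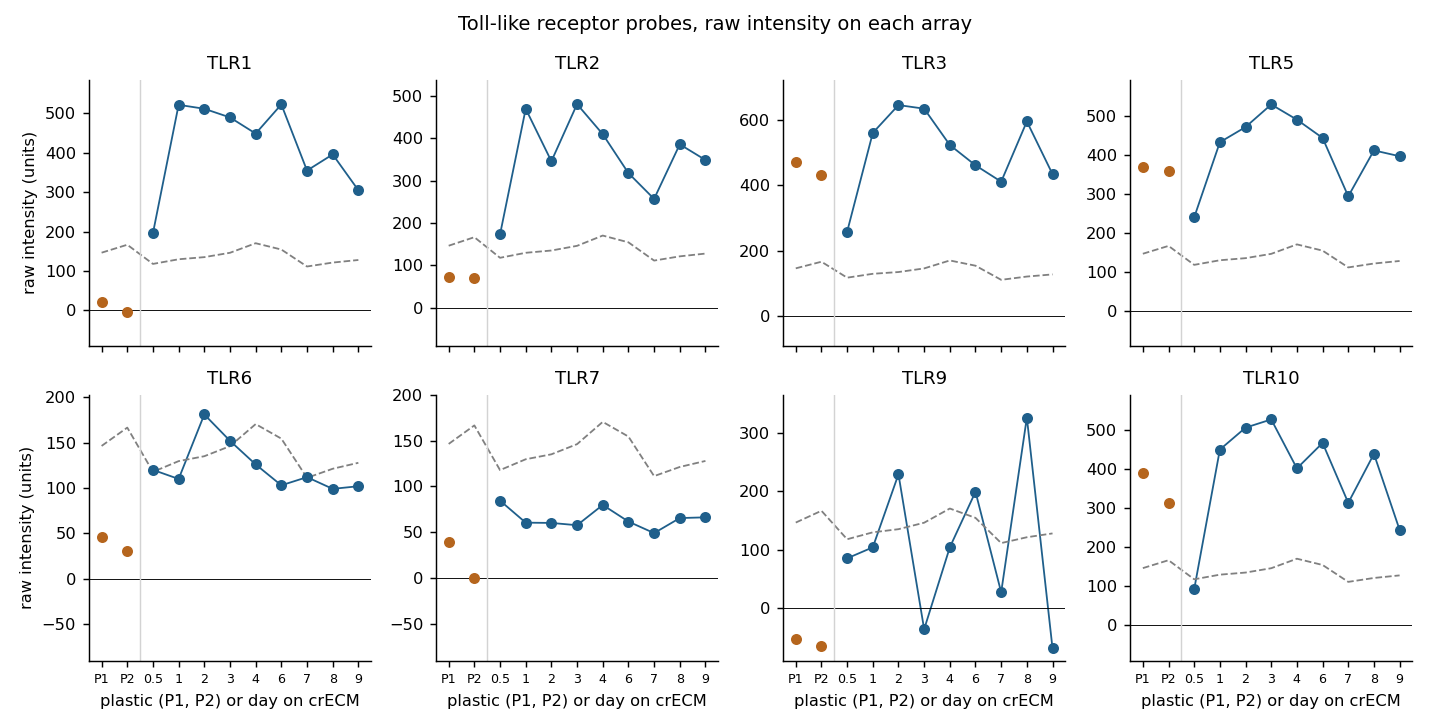
Raw intensity of the same probes on the 11 arrays in order of time, with a dashed line at 3 noise SDs above the zero point of each array. TLR1 reads 22.1 and -3.9 on plastic and 196 to 523 on crECM, whereas TLR5 reads 370 and 358 on plastic and 240 to 530 on crECM.

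The time course on crECM was examined next, to ask whether the receptors changed at once or over days. The 12 h array was set against the other 8 crECM arrays, with the lone array assumed to vary like the others. TLR10 read lower on the 12 h array (log2 difference -1.87, SE 0.34, limma adjusted p = 0.017, with a spread taken from the other 8 arrays alone), beside 2.69% of all probes called lower and 6.23% called in either direction. With quantile normalization the difference was -1.44 (adjusted p = 0.063) and no longer passed, and the 12 h array also had the lowest raw median of the crECM arrays. TLR7 was 0.85 higher and was called, beside 3.54% of all probes called higher, but the other 8 arrays are all at the floor, so there is no spread behind its p. The log2 differences of TLR1 (-0.42, adjusted p = 0.38), TLR2 (-0.35, adjusted p = 0.63), TLR3 (-0.30, adjusted p = 0.55), TLR5 (-0.05, adjusted p = 0.95), TLR6 (1.33, adjusted p = 0.28) and TLR9 (0.18, adjusted p = 1.0) did not pass. Over the 9 arrays no receptor had a slope on log2 of the day that passed (limma, 0 of 8), beside 1 of 21480 probes (0.00466%). At an unadjusted p under 0.05 in limma, 1819 of the 21480 probes and 1 receptor, TLR7, had a slope. With 1 array a day, an order of neighboring days cannot be told from the spread between arrays.

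**Figure D3:**
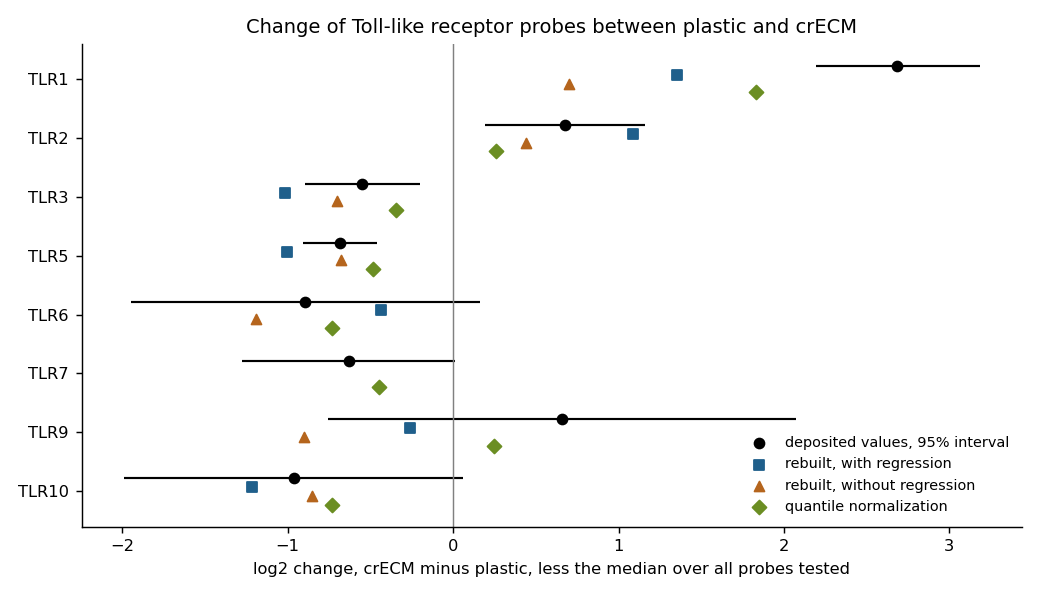
Log2 change of each receptor between plastic and crECM, less the median over all probes tested, in the deposited values (points with 95% interval) and under 3 other treatments of the raw intensities. TLR1 and TLR2 lie above 0 and TLR3, TLR5, TLR6 and TLR10 below 0 under each, while TLR9 changes side and TLR7 was not tested in the rebuilt values.

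The genes that work with the receptors were described by 9 lists drawn from the known pathway, with 1 probe for each gene. In all, 136 listed genes were on the array and 133 were tested. Of these 38 were higher and 24 lower on crECM, beside 22.8% and 22.4% of all probes. Of the genes named below, 10 were called lower on crECM with a crECM mean at the floor of 3 SD. All 10 had deposited values above 3 SD on plastic, but against noise measured on the raw values they were above 3 SD on no plastic and no crECM array, and in 4 of the 10 (CTSS, IKBKG, RNF216 and TICAM1) every crECM raw value was above both plastic raw values. For these 10 genes lower refers to the deposited values. Their crECM values lie at the floor, so almost no spread on crECM stands behind their SEs and p-values. Those rest on the 2 plastic arrays and on spread borrowed from other probes. Only probes above 3 SD on at least 2 arrays were tested, so these 10 genes entered through the plastic arrays alone. The filter thus fixed their direction and the lack of overlap, and their p-values are no test of a fall. They still count among the lower genes of the lists. In the same way CHUK, CD86, DHX58 and NLRC4, at the floor on plastic, could only come out higher. Among the named genes called higher, BPI, IL1RL2, IL1RAP, CHUK, TRAF6, NFKBIB and SOCS3 were above 3 SD of raw noise on no plastic array. The same held for CD86, IL10, FGB, FGG, DHX58 and NLRC4. Each was above it on 8 or 9 crECM arrays, and its plastic value was not distinct from raw noise. Of 14 co-receptors, ligand carriers and chaperones, 6 were called higher and 4 lower (median log2 change 0.36). BPI, a neutrophil protein that binds bacterial lipopolysaccharide, rose 5.53-fold from 5.81 to 32.1 SD (log2 change 2.47, SE 0.25, adjusted p = 1.3e-05), and CTSB, an endosomal protease, rose from 28.5 to 57.9 SD (adjusted p = 1.4e-05). HSP90B1, the chaperone that folds most Toll-like receptors, was 7.31 SD on plastic and at the floor on crECM (log2 change -1.29, SE 0.06, adjusted p = 1.3e-08), with raw intensities of 33.8 and 35.1 on plastic and 26.3 to 61.9 on crECM. The protease CTSS was 5.34 SD on plastic and at the floor on crECM. With quantile normalization BPI rose 3.39-fold. CD14, which hands lipopeptides and lipopolysaccharide to the receptors, was 23 SD on plastic and 22.7 SD on crECM (log2 change -0.03, SE 0.14, adjusted p = 0.90), and values rebuilt from raw intensities gave a log2 change of 0.63 (adjusted p = 0.0082), which is 0.09 relative to the median of all probes (0.54). UNC93B1, which carries the endosomal receptors to their place, was at the floor on plastic and had a mean of 7.46 SD on crECM (adjusted p = 0.14). It was called higher with a floor of 1 SD (log2 change 2.78, adjusted p = 0.018). The same held without the 12 h and day 7 arrays, chosen after seeing the data (1.68, adjusted p = 0.029). It did not pass with quantile normalization (0.45, adjusted p = 0.47) or in rebuilt values (0.55, adjusted p = 0.29). LY96, the partner of TLR4, was too rarely above 3 SD to be tested.

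Of the 3 TIR adaptors tested, which link the receptors to kinases, none was called higher and 2 were called lower (median -0.54). The shares over all probes were 22.8% higher and 22.4% lower. No adaptor was called lower in rebuilt values, with quantile normalization, with a filter at 5 SD or without either plastic array, where neither of the pair below passed the filter on low values. TICAM1, the adaptor of TLR3, was 5.31 SD on plastic and at the floor on crECM (log2 change -0.83, SE 0.09, adjusted p = 2.6e-05). MYD88, the adaptor of most members, was 4.38 SD on plastic and at the floor on crECM (-0.55, SE 0.09, adjusted p = 0.00049), and with a floor of 5 SD its change was -0.02 (adjusted p = 0.33). Raw intensities of TICAM1 were 20.6 and 25.4 on plastic and 43.7 to 79.2 on crECM, and those of MYD88 were 16.6 and 19.4 on plastic and 14.9 to 70 on crECM. Neither adaptor was thus distinct from noise on the raw scale on any array. SARM1, an inhibitory adaptor, was 10.6 SD on plastic and 10.5 SD on crECM (adjusted p = 0.99). No probe had TIRAP, TICAM2 or IRAK4 as its single symbol.

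Of 9 receptors of the interleukin-1 family, which share the TIR domain, 4 were called higher and 1 lower (median 0.46). For this list and the next, the shares over all probes were 22.8% higher and 22.4% lower. IL1RL2, the interleukin-36 receptor, was at least 4.16-fold higher on crECM (adjusted p = 2.9e-05), and IL1RAP, the shared accessory chain, at least 3.62-fold (adjusted p = 0.00021). Both were off-on genes. With quantile normalization the increases were 2.08-fold and 1.77-fold, and in rebuilt values 2.19-fold and 2.51-fold, all called. Without the adjustment between arrays IL1RL2 stood at -0.05 relative to the median of all probes and IL1RAP at 0.15. IL1RAPL1 was 8.38 SD on plastic and at the floor on crECM. Of 20 receptor-proximal kinases and ubiquitin ligases, 7 were called higher and 3 lower (median 0.11). CHUK, a kinase of the IκB kinase complex, was at the floor on plastic and 46.1 SD on crECM, at least 15.4-fold higher (adjusted p = 5.4e-09), with raw intensities of 9.6 and -8.9 on plastic and 318 to 874 on crECM. Its increase was 6.38-fold in rebuilt values and 6.32-fold with quantile normalization, both called. TRAF6, the ubiquitin ligase after IRAK, rose 3.15-fold from 7.50 to 23.6 SD (log2 change 1.66, SE 0.21, adjusted p = 8.3e-05), and 2.01-fold with quantile normalization. IRAK1 rose from 21.9 to 29.7 SD (adjusted p = 0.017), a call lost with quantile normalization (adjusted p = 0.055), with array weights (adjusted p = 0.058) and without plastic replicate 2 (adjusted p = 0.34). IKBKG, the regulatory subunit of the same complex as CHUK, was 5.93 SD on plastic and at the floor on crECM. UBE2N, the conjugating enzyme that works with TRAF6, fell from 10.4 to 3.78 SD (adjusted p = 0.0048), a call lost without plastic replicate 1 (adjusted p = 0.065) or 2 (adjusted p = 0.051). Without the adjustment between arrays it stood at -1.11 relative to the median of all probes. Raw intensities of UBE2N were 65.4 and 47.1 on plastic and -38.3 to 204 on crECM. Against raw noise it was above 3 SD on no plastic array and on 3 crECM arrays, so its fall refers to the deposited values.

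Of 16 inhibitors of the pathway 2 were called higher, 2 lower and 12 neither (median 0.18), beside 22.8% higher and 22.4% lower over all probes. NFKBIB and SOCS3 rose 1.36-fold and 1.33-fold (both adjusted p = 0.026). Neither was called with quantile normalization (adjusted p = 0.41 and 0.38), with array weights (0.076 and 0.06), without plastic replicate 1 (0.16 and 0.082) or without plastic replicate 2 (0.15 and 0.26). TNFAIP3 (A20), which removes ubiquitin from TRAF6, fell from 53.4 to 40 SD (adjusted p = 0.006), a call lost without plastic replicate 2 (adjusted p = 0.12). Relative to the median of all probes TNFAIP3 stood at -0.47 in the deposited values and at -0.77 without the adjustment between arrays. RNF216 was 4.80 SD on plastic and at the floor on crECM (adjusted p = 0.0015). Of 14 transcription factors 2 were called higher and none lower with 1 probe a gene (median -0.12). CREB1 rose 1.39-fold (adjusted p = 0.017) and REL, an NF-κB subunit, 1.22-fold (adjusted p = 0.011). When any probe of a gene counted, 1 factor was called lower, and 1 was called lower in values rebuilt with regression. No factor was called higher with array weights or without either plastic array, and with quantile normalization REL was called (adjusted p = 0.0045) and CREB1 was not (adjusted p = 0.08).

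Of 30 target genes 8 were called higher and 7 lower (median 0.18). These are 26.7% and 23.3%, near the 22.8% and 22.4% of all probes. In values rebuilt with regression 17 were higher and 3 lower, beside 9483 and 2642 of 19421 probes. Without regression the counts were 25 and 0, beside 15898 and 53 of 19533 probes. CD86, a costimulatory ligand, was an off-on gene at least 6.06-fold higher on crECM (adjusted p = 2.9e-07), and IL10 rose 3.64-fold (adjusted p = 0.00096). CD86 was 2.6-fold higher with quantile normalization and 2.76-fold in rebuilt values, and IL10 2.1-fold higher with quantile normalization, 6.93-fold without plastic replicate 1 and 1.92-fold without plastic replicate 2, all called. NOS2 and CXCL9 were 8.19 and 7.28 SD on plastic and at or near the floor on crECM in the deposited values. Raw intensities of CXCL9 were 33.9 and 34.5 on plastic and 31.9 to 73.6 on crECM, above 3 SD of raw noise on no array. Of 15 endogenous ligands 4 were called higher and 2 lower (median 0.05). The fibrinogen chains FGB (at least 2.95-fold, adjusted p = 0.0018) and FGG (2.09-fold, adjusted p = 0.0056) rose. FGB was called with quantile normalization at 1.53-fold and not without plastic replicate 2 (adjusted p = 0.077), and FGG was called neither with quantile normalization (adjusted p = 0.16) nor without plastic replicate 1 (adjusted p = 0.1). HSPA8, a heat shock protein, fell from 95 to 33.0 SD (adjusted p = 0.0046). Of 19 other innate sensors 5 were called higher and 5 lower (median 0.39). DHX58, a helicase of the RIG-I family, and NLRC4, a subunit of an inflammasome that responds to flagellin, were off-on genes at least 6.18-fold and 6.11-fold higher in the deposited values, 2.66-fold and 2.62-fold with quantile normalization and 2.8-fold and 2.76-fold in rebuilt values, all called. Relative to the median of all probes, DHX58, NLRC4 and CD86 stood at 0.947, 0.926 and 0.925 in rebuilt values. Without the adjustment between arrays they stood at 0.295, 0.276 and 0.273. In the deposited values RIGI, the founding helicase, and NAIP, the flagellin sensor upstream of NLRC4, were 5.81 and 5.49 SD on plastic and at the floor on crECM.

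**Figure D4:**
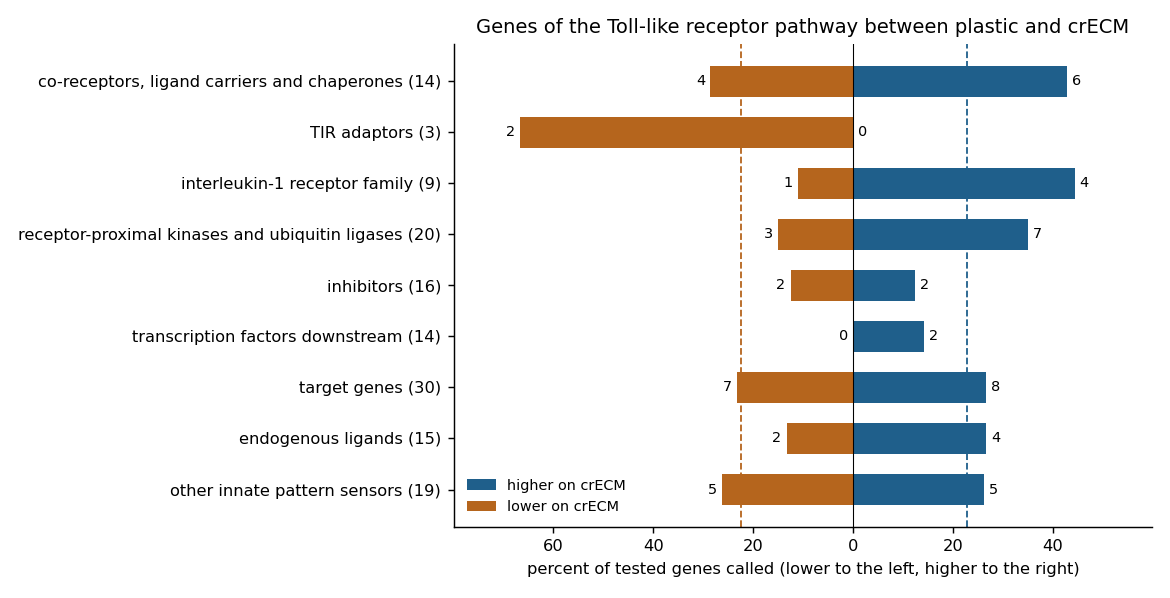
Percent of the tested genes of each list called higher (right) or lower (left) on crECM, with the number of genes beside each bar, the number tested in parentheses and dashed lines at the share of all probes. The 3 TIR adaptors hold 2 lower and 0 higher genes, and the 30 target genes split into 8 higher and 7 lower. Both lower adaptors were within raw noise on every array, and neither was called lower in rebuilt values or with quantile normalization.

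The genes most like the 4 called receptors were found by Pearson r of log10 values over the 11 arrays, which share substrate and handling, as a description only. TLR1 was most like RNF114 (r = 0.988, and 0.620 over the 9 crECM arrays) and TSPAN33 (0.983 and 0.851). TLR2 was most like GCNT2 (0.947 and 0.881) and ZNF318 (0.945 and 0.873). TLR3 was most like TP53AIP1 (0.951 and 0.962) and EDRF1-DT (0.940 and 0.927), and TLR5 was most like SP3 and PCDHGA4 (both 0.967, and 0.811 and 0.777 over crECM). The likeness of RNF114 to TLR1 was lower within crECM than over all arrays, and that of TP53AIP1 to TLR3 was not.

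Because Toll-like receptors are also abundant in white blood cells, markers of other cells were read in the same arrays. Of 16 leukocyte markers, 13 were above 3 SD on both plastic arrays and 13 on all crECM arrays, with summed values of 303.4 and 320.6 SD on plastic and 370.5 to 469.3 SD on crECM, and 3 were called higher and 3 lower. Of 12 markers of fibroblasts, muscle and endothelium, 8 were above 3 SD on both plastic and 8 on all crECM arrays, 222.7 and 230.5 SD in sum on plastic and 194.2 to 245.6 SD on crECM, and 4 were called higher and 4 lower. Of the 18 urothelial and epithelial markers tested, 1 was higher and 3 were lower, with sums of 884.7 and 940.1 SD on plastic and 783.1 to 1421 SD on crECM. Over all probes tested 22.8% were called higher and 22.4% lower. No marker of any list was under 3 SD on all arrays, although RT4 is a line of epithelial origin. The part of this signal in the receptor values was not tested.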

How the data were processed

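RNA of RT4 cells on plastic (2 arrays) and crECM (9 arrays) was read as Cy3-labeled cDNA on spotted oligo arrays. The authors deposited raw intensity values per array, and log10 values of the SDs above the noise peak, adjusted between arrays by robust linear regression. The scanner and its background correction are not given in the sources used here. Of 22464 probes, 16952 were matched by gene identifier to GRCh38.p14 names.

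The deposited log10 values were tested as log2 with a floor of 3 SD in limma 3.58.1 (R 4.3.3, eBayes with trend), on probes above 3 SD on at least 2 of 11 arrays, with Benjamini-Hochberg adjustment over 21480 probes. Means are of floored log values. Two-sided exact permutation tests used all choices of 2 arrays. The noise peak of raw values was the mode of a kernel density (bandwidth 8), with its SD from the lower side. Values were rebuilt from raw intensities with and without regression (MASS 7.3.60.0.1) and by quantile normalization. Other alternatives were the floor, filter, array weights, variance trend and leaving out each array. The fit was tested on simulated data, drawn for both groups around the crECM levels and spreads, with changes only in probes well above the floor. These data held no shift or noise difference between substrates, so they do not test the calls between plastic and crECM. Python 3.11.15 was used for counts. The number of arrays, 11, limits the precision.

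The members and lists were chosen with earlier results of these data known. Named were all members, up to 2 genes a direction in each list (largest called change, groups not overlapping), the 2 genes most like each called member, and 10 core genes of the pathway. SARM1 was named outside this rule, as the remaining TIR adaptor tested.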

Additional observations from a re-analysis of the deposited data

Results flagged for a closer look

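Over the 9 crECM arrays the 12 h array stood apart for TLR7 and TLR10. TLR10 was 6.47 SD at 12 h, the lowest of the 9, and its gap to the next array was 0.537 of the range, above the limit of 0.493 for 9 arrays. TLR7 was 5.42 SD at 12 h, where the other 8 arrays were all under 3 SD and count as equal at the floor, so its gap fills the whole range. On the raw scale TLR7 was above 3 SD on no array. Each of the 8 receptors was examined in this way, and chance flags about 0.4 of 8. The 12 h array had the lowest raw median (224.16) and the next to lowest slope of deposited on raw log values (1.18) of the crECM arrays, and the part of this in either value was not tested.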

How the results depend on the processing

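TLR1 kept its direction and its call between plastic and crECM under every alternative, and TLR9 did not pass under any. With values rebuilt with regression (median of all probes 0.54), 9483 probes were called higher and 2642 lower, TLR6 changed by 0.101, CD14 by 0.628, and 65 pathway genes were higher and 10 lower. At 12 h 1112 probes were then lower and TLR9 changed by -0.311. Without regression 15898 probes were higher and 53 lower (median of all probes 1.27), with TLR3 at 0.57, TLR5 at 0.596, TLR6 at 0.08, TLR10 at 0.419, UBE2N at 0.165 and TNFAIP3 at 0.498 (-1.107 and -0.773 relative to that median), CD14 at 1.626, and 104 pathway genes higher and 1 lower. At 12 h 104 probes were then higher and 954 lower, TLR6 was at -0.044 and TLR9 at -0.417, and over the days 7 probes rose and 72 fell. With quantile normalization 3176 probes were higher, 24 pathway genes were higher, TLR2 was at 0.259, TLR3 at -0.345, TLR6 at -0.736 (adjusted p = 0.032) and TLR7 at -0.45 (adjusted p = 0.043), and at 12 h 395 probes were higher and 308 lower, with TLR9 at -0.166 and TLR10 at -1.436. Array weights gave TLR2 0.742, TLR3 -0.441 and CD14 0.003, and a slope of -0.033 for TLR1. A floor of 5 SD gave TLR7 -0.286 and, at 12 h, TLR9 -0.283, and a floor of 1 SD gave TLR9 a slope of -0.13. Without the 12 h and day 7 arrays, chosen after seeing the data, TLR6 was at -1.16, TLR10 at -0.739 (adjusted p = 0.024) and CD14 at 0.004. No probe was called rising over the days with values rebuilt with regression, quantile normalization, array weights or no variance trend. On both plastic arrays, 3 receptors were above 3 SD and 3 above 5 SD with rebuilt values or raw noise, against 5 in the deposited values.
Leaving out 1 array in turn gave 2432 to 5453 probes higher and 1460 to 5193 lower, 19 to 39 pathway genes higher and 3 to 26 lower. TLR2 ranged from 0.67 to 0.798, TLR3 from -0.532 to -0.443, TLR7 from -1.241 to -0.561 and TLR10 from -0.968 to -0.699. The lowest counts came without plastic replicate 2 (2432 and 1460), followed by those without plastic replicate 1 (3121 and 1924). TLR7 was called without plastic replicate 2 (-1.241, adjusted p = 0.021), and TLR10 without the 12 h array. CD14 ranged from -0.057 (without plastic replicate 2) to 0.021 (without the 12 h array) and was 0.007 without plastic replicate 1. For slopes, the range was -0.059 to 0.084 for TLR1, -0.32 to 0.037 for TLR6, -0.103 to 0.22 for TLR9 and -0.063 to 0.377 for TLR10, with 0 to 1 probes rising. The causes were not tested. TLR7 could not be fitted in rebuilt values, without plastic replicate 1 or without the 12 h array, where it was above 3 SD on fewer than 2 arrays. No paired analysis was possible because the crECM titles carry no replicate numbers. A lone plastic array is assumed to vary like the crECM arrays.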
